A study of Mus musculus with 21 samples.

Results

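The knockdown of PDS5B and the knockdown of STAG2 were compared directly in mouse embryonic stem cells (mESCs) that lack PDS5A. The 6 libraries were chosen by their labels, 3 of Pds5a-KO siPds5b and 3 of Pds5a-KO siStag2, out of 21 RNA-seq libraries in 7 conditions. All 6 came from v6.5 male mESCs of 1 CRISPR/Cas9 clone, edited on both alleles in an exon of Pds5a with one deletion that reaches into the next intron, grown on gelatin, transfected with siRNA at 50 nM and collected after 48 h. Their 3 Pds5a-KO libraries transfected with siGLO, a control for transfection, carry the same knockout, so each siRNA is compared within PDS5A-null cells, and effects of an siRNA on transcripts other than its target were not tested. WT mESCs with siGLO or siPds5b gave 3 libraries each and show the same siRNA with PDS5A present. Pds5a-KO mESCs with siStag1 and Pds5b-KO mESCs with siGLO also gave 3 libraries each. These entered the fit of all 21 libraries and the family sums. Since all Pds5a-KO libraries share 1 clone, an effect of the clone and an effect of the gene cannot be told apart.

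Cohesin is a ring-shaped complex that holds sister chromatids together and extrudes loops of chromatin. A STAG protein, STAG1 or STAG2, is a part of each complex and helps it bind DNA, while PDS5A and PDS5B bind the ring as alternatives and take part in its release by WAPL, in its acetylation and in its halt at CTCF sites. In mESCs the complex is known for its presence at enhancers and promoters of the genes that keep the cells pluripotent. The comparison asks at which genes lowering the remaining PDS5 protein and lowering STAG2 differ in their effect.

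Total counts were between 17311090 and 22026367 in the 6 libraries. All 10 mESC markers were detected in every library, with Pou5f1 between 820.5 and 993.3 CPM (counts scaled to a fixed library total), and of the 9 fibroblast markers Col1a1 had 197 to 650 raw counts, Col1a2 130 to 490, Pdgfrb 91 to 201 and Thy1 89 to 163, while Lum (0 to 2) and Postn (0 to 7) were at 0 in some libraries. The summed normalized counts of the fibroblast markers overlapped, at 554.9 to 1523 after siPds5b and 728.1 to 1036 after siStag2, and 0 of the 7 tested differed. Throughout, a normalized count is the count scaled to a common library size, a log2 fold change is siPds5b minus siStag2 unless said otherwise, and a gene is called at an adjusted p under 0.01 by edgeR's quasi-likelihood test.

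Each siRNA lowered its own target. Pds5b (chromosome 5, 150673713 to 150810669 of mm10) had normalized counts of 1073, 900.8 and 735.5 after siPds5b, 2812, 2586 and 2656 after siStag2, and 2613, 2074 and 2412 after siGLO. The siPds5b libraries lay below all others, at a mean of 38.2% of siGLO, and the log2 fold change between the siRNAs was -1.57 ± 0.11 (SE; edgeR adjusted p = 1.01e-08). Stag2 (chromosome X, 42149297 to 42277186) had 4550, 4005 and 3916 after siPds5b, 851.1, 953.9 and 820.6 after siStag2, and 3561, 2930 and 3275 after siGLO. The siStag2 libraries were at a mean of 26.9% of siGLO and did not overlap the rest, a difference of 2.25 ± 0.10 on the log2 scale (edgeR adjusted p = 9.34e-13). An exact two-sided permutation test over the 20 arrangements of 3 against 3 libraries gave p = 0.1 for each target, the smallest value that design allows. Stag1, the other STAG gene, did not pass the test, at -0.04 ± 0.08 (95% interval -0.21 to 0.14; edgeR adjusted p = 0.831).

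The Pds5a transcript itself was counted in all knockout libraries, at 4082, 3806 and 3522 after siPds5b and 4686, 4398 and 4349 after siStag2. WT libraries with siGLO had 5256, 4720 and 5200. The edits cover a small stretch of the gene, and reads are counted over all of it, so these counts do not check the knockout. The log2 fold change of Pds5a between the siRNAs was -0.24 ± 0.09 (edgeR adjusted p = 0.0999).

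**Figure D1:**
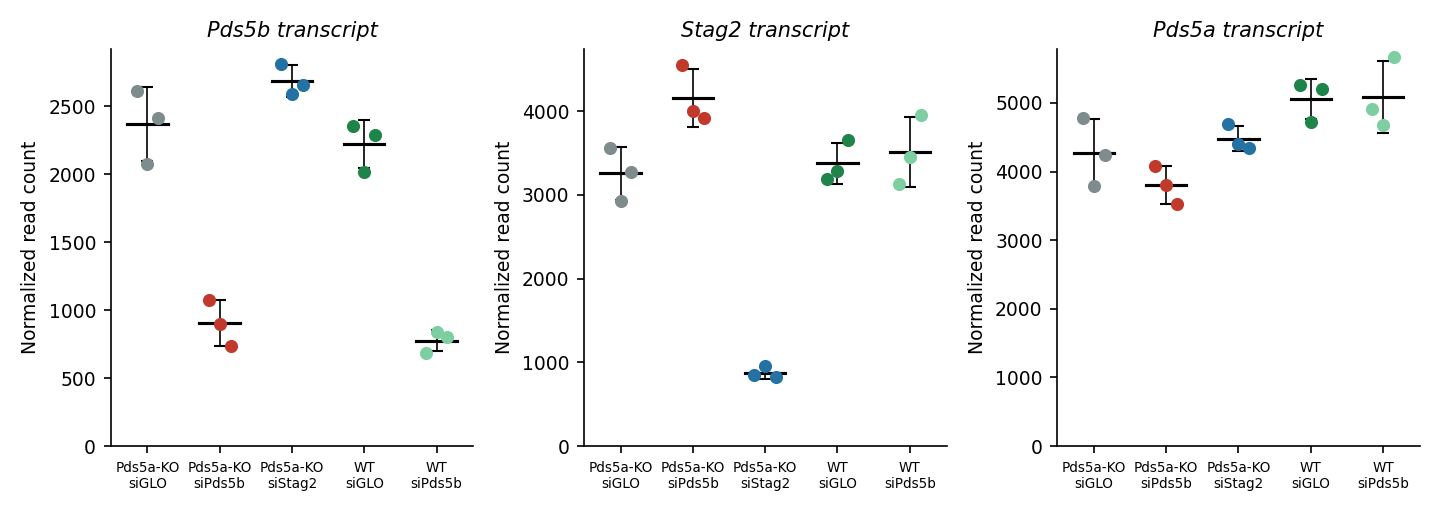
Normalized read counts of Pds5b, Stag2 and Pds5a in each library (points) of 5 conditions, with the mean (bar) and SD (error bars) of 3 libraries. Pds5b is low only in the conditions with siPds5b and Stag2 only after siStag2, while Pds5a lies between 3522 and 5674 in every library shown.

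Of 14963 genes tested, 593 (3.96%) differed between the 2 knockdowns, 305 higher (2.04%) and 288 lower (1.92%) after siPds5b. Among these called genes the higher ones had the larger changes. Their median log2 fold change was 0.95, and 148 of them differed at least 2-fold, against a median of -0.52 and 18 such genes among the lower ones. The higher genes also lay at lower levels, and the part of level in this difference was not tested. The normalized counts of both groups did not overlap at 592 of the 593 genes, against 26.6% of all genes tested. The 593 genes were picked by the difference between these same libraries, so this count is largely set by that choice and is a description. With the replicate number as a block the call covered 891 genes, 437 higher and 454 lower, and all 593 were among them. Scaling by library size alone gave 539 genes, 332 higher and 207 lower. Without siPds5b replicate 1 or 2 the count was 290 or 273, and without siStag2 replicate 1 or 3 it was 272 or 349.

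The 305 higher genes were genes of low level, with a median of 2.87 on the log2 CPM scale against 4.33 over all genes tested, and the 288 lower genes were of high level, at 5.40. The higher genes were also shorter, with a median gene length of 17357 bases against 22474 over all genes and 26148 for the lower ones. Gene models without a name made up 11.8% of the higher, 3.12% of the lower and 7.31% of all genes. On the 20 chromosomes with tested genes the share called was between 2.703% and 5.28%, and the median log2 fold change was between -0.03 and 0.06.

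Measured against siGLO, siPds5b changed more genes than siStag2. After siPds5b 1136 genes (7.59%) differed from siGLO, 599 higher (4%) and 537 lower (3.59%), and after siStag2 335 (2.24%), 145 higher (0.969%) and 190 lower (1.27%). With the block the counts were 1568 for siPds5b and 677 for siStag2, and with DESeq2 they were 1468 and 775. The siStag2 count fell to 68 or 158 without siStag2 replicate 1 or 3 and to 115 or 128 without siGLO replicate 1 or 2, while the siPds5b count was 710 without siPds5b replicate 2 and 689 without siGLO replicate 2. The 2 comparisons share their siGLO libraries, so their values are given side by side. The 305 and 288 genes were picked by siPds5b minus siStag2 in these same libraries. Opposite signs against siGLO are thus partly set by that choice, and the values below are a description. At the 305 genes higher after siPds5b, the median log2 fold change against siGLO was 0.89 for siPds5b and -0.13 for siStag2, and 199 were called higher after siPds5b and 18 lower after siStag2. At the 288 lower genes the medians were -0.39 and 0.12, with 148 called lower after siPds5b, and 22 called higher and 15 lower after siStag2.

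**Figure D2:**
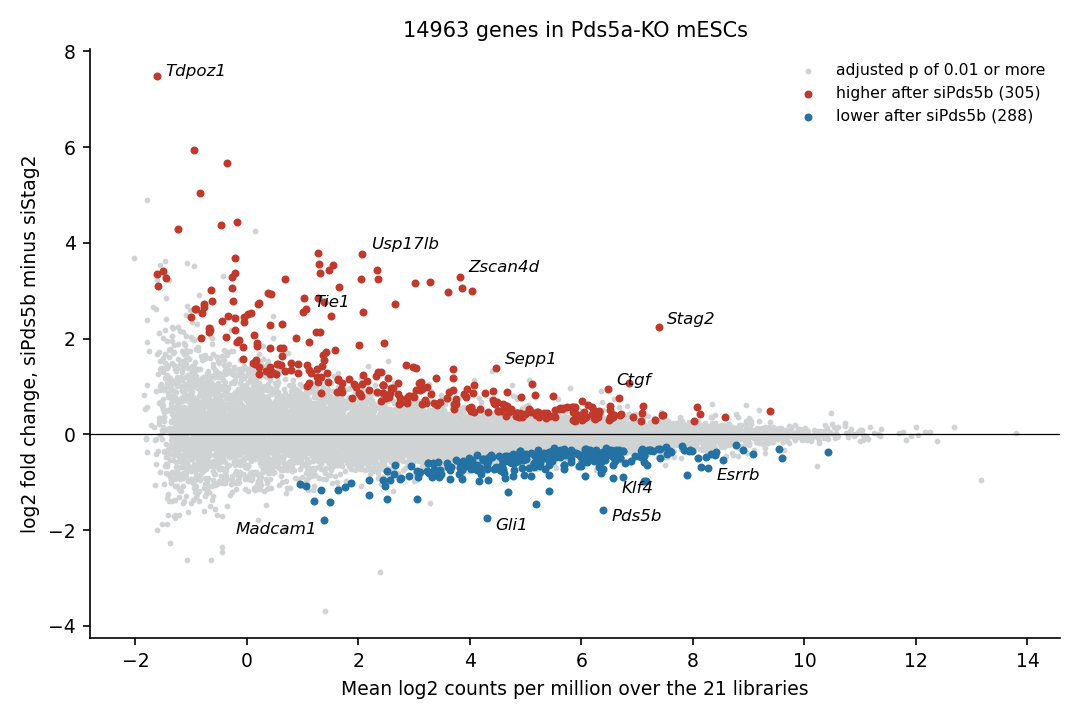
Log2 fold change of siPds5b minus siStag2 (vertical axis) against the mean log2 CPM over the 21 libraries (horizontal axis) for each of 14963 genes. The 305 genes called higher reach up to 7.48, mostly at low levels, while the 288 called lower lie between 0 and -1.79 and mostly at higher levels.

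The largest difference was in genes of the 2-cell-like state, a rare and passing state of mESCs in which transcripts of the 2-cell embryo are made. Of the 25 genes listed for it 22 could be tested, and 20 were called higher (2.04% over all genes) and 0 lower after siPds5b, with a median log2 fold change of 3.01 (0.00 over all genes). Against siGLO all 22 were called higher after siPds5b (4% over all genes; median 2.83) and 0 were called after siStag2 (median -0.24). In bulk RNA more cells in this state and more RNA per cell cannot be told apart. Leaving out single libraries left between 17 and 20 of the calls, with 17 without siPds5b replicate 1, siStag2 replicate 1 or siStag2 replicate 3. A count of at least 10 in every library left 7, since most members were near 0 in some libraries. The filter on low counts keeps a gene that is high enough in 1 condition. Some members may thus have been kept largely through their siPds5b libraries, and the size of that effect was not tested. The list was also chosen with earlier results of these data known, so its count is a description.

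The Zscan4 genes encode zinc finger proteins with a SCAN domain that mark the 2-cell embryo and act on telomeres in mESCs, and the Usp17l genes encode deubiquitinating enzymes. Both families are sets of related copies on chromosome 7, and the windows upstream of their starts share sequence too. The 250 bases before the start are shown for 2 members of each family from RefSeq (GRCm38.p6), with the longest run that all 4 Zscan4 or all 4 Usp17l members with an entry share in capitals.
Zscan4c, chr7:11005495-11005744, plus strand: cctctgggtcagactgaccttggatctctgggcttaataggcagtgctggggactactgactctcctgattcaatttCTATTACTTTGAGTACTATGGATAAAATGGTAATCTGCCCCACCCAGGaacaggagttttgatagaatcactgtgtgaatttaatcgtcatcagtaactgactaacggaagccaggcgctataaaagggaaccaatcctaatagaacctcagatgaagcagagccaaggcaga
Zscan4d, chr7:11166149-11166398, minus strand: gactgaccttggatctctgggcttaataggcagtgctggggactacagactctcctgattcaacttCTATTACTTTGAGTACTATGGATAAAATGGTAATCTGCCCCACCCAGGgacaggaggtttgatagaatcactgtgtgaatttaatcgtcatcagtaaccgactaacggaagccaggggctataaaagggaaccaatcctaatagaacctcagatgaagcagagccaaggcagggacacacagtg
Usp17la, chr7:104856766-104857015, plus strand: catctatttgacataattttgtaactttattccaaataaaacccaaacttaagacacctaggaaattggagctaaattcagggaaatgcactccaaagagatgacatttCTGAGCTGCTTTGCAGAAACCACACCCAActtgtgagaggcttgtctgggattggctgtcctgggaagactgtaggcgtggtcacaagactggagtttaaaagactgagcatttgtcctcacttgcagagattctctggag
Usp17lb, chr7:104842584-104842833, minus strand: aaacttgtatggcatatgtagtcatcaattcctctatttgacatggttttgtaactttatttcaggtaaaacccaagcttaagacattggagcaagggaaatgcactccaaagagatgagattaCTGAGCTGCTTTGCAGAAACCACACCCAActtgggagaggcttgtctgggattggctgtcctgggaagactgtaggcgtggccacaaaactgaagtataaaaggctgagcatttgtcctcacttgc
The shared runs are 48 bases in the Zscan4 and 29 bases in the Usp17l windows, and no other of the 32851 windows in the table held either run. The letters TATAAA, the core of a TATA box, were searched on both strands and found in all 4 Zscan4 windows, in 3 of 4 Usp17l windows and in 12.4% of all windows. These matches are a description of the sequence only.

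Summed over the 6 Zscan4 genes, the normalized counts were 2548, 2433 and 1356 after siPds5b and 256.7, 334.8 and 168.6 after siStag2. The siGLO libraries had 398.2, 336.7 and 271.8. The siPds5b libraries were thus far above both, with replicate 3 the lowest, and the siStag2 libraries overlapped siGLO. In WT mESCs the sums were 3206, 2068 and 2765 with siGLO, so the knockout line with siGLO lay far below WT and the siPds5b libraries near the WT level. The 5 Usp17l genes summed to 1140, 945.4 and 538.2 after siPds5b and 79.1, 88.3 and 78.7 after siStag2. With siGLO the knockout line had 97.5, 72.0 and 65.5 and WT 407.3, 289.5 and 366.3, so here the siPds5b libraries were above WT as well.

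**Figure D3:**
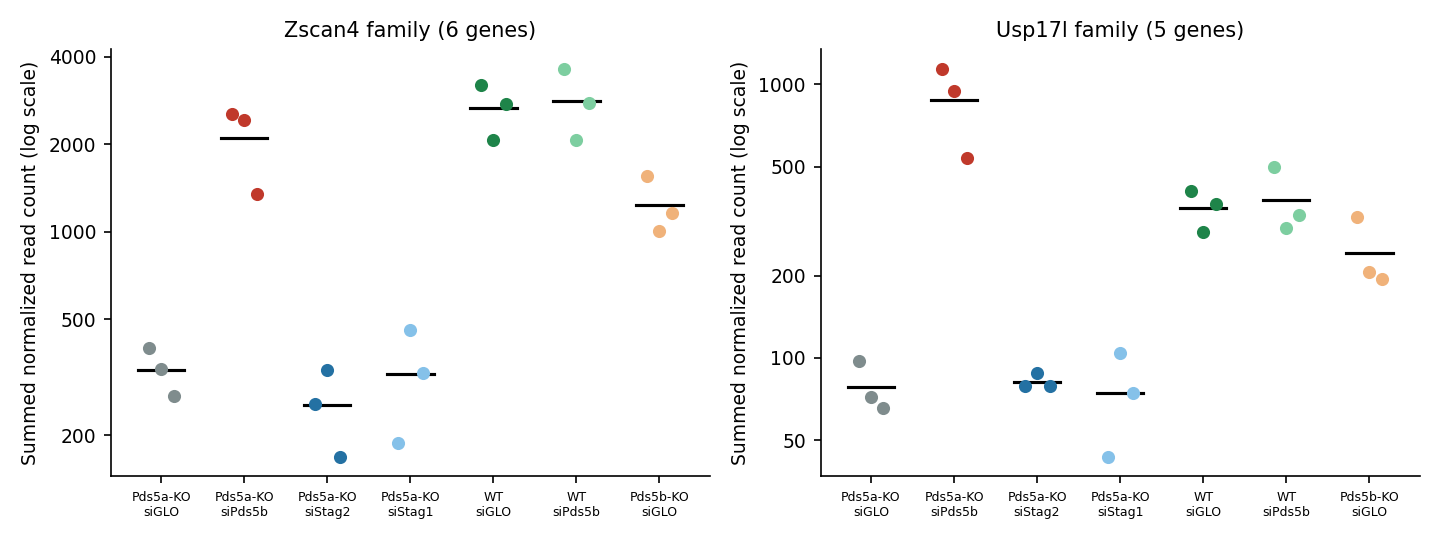
Summed normalized read counts (log scale) of 6 Zscan4 genes and 5 Usp17l genes in each library of all 7 conditions, with the mean as a bar. In Pds5a-KO mESCs only the siPds5b libraries, at 1356 to 2548 and 538.2 to 1140, leave the range of siGLO, siStag1 and siStag2.

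Usp17lb showed the largest change among genes averaging 1 or more on the log2 CPM scale, with 345.4, 293.4 and 180.4 normalized counts after siPds5b and 16.6, 19.5 and 23.5 after siStag2. The groups did not overlap, and the log2 fold change was 3.78 ± 0.36 (edgeR adjusted p = 1.12e-06). Usp17la followed with 222.9, 181.4 and 119.6 against 20.5, 14.9 and 9.20, which differed by 3.54 ± 0.37 on the log2 scale (edgeR adjusted p = 1.69e-06). Usp17lc was at 3.36 and Usp17le at 3.25. Zscan4d had 631.3, 571.2 and 308.0 after siPds5b and 50.8, 66.5 and 38.8 after siStag2, again without overlap, which differed by 3.28 ± 0.36 on the log2 scale (edgeR adjusted p = 2.77e-05). Zscan4c, with 601.1, 546.3 and 342.9 against 61.5, 87.1 and 38.8, reached 3.00 ± 0.35 (edgeR adjusted p = 4.31e-05). Zscan4e, Zscan4a, Zscan4f and Zscan4b were at 3.18, 3.05, 2.97 and 2.56. Reads of some copies are hard to assign, since 76.0% of the 150-base windows of Zscan4e and 54% of those of Zscan4c also occur in another member, against 13% for Zscan4d and 2.27% for Usp17lb, so the family sums are the firmer values.

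Outside these 2 families the list gave the same direction at low levels. The Tdpoz genes, which encode proteins with TRAF and POZ domains, share no window of 150 bases with each other. Tdpoz1 had 30, 28 and 11 raw counts after siPds5b and 0 in each siStag2 library, which makes it at least 21.2-fold higher when 3 counts over the group are set as the floor. Tdpoz4 had 91 raw counts against 1, a ratio of 84.0 with a 95% counting interval of 14.7 to 3360, and Tdpoz3 had 97 against 4. With Tdpoz1 at its bound the median of the list stayed at 3.01. Zfp352, a zinc finger gene of the early embryo, was at 3.02 ± 0.53 (edgeR adjusted p = 0.000801). Tcstv3 and Tcstv1, 2 genes named for their stage in the embryo, were at 2.93 and 2.53. The 2 members that did not pass the test were Spz1 at 2.61 (edgeR adjusted p = 0.0594) and Dux at 2.06 (edgeR adjusted p = 0.0193). Dux encodes the transcription factor that activates the 2-cell programme.

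Of the 40 largest increases over all called genes, 14 were members of this list, 16 were gene models without a name and 10 were other genes. Among genes outside the list that averaged 1 or more on that log2 CPM scale, Tie1, a receptor kinase of endothelial cells, had 111.0, 92.3 and 90.7 normalized counts after siPds5b and 17.6, 14.9 and 15.3 after siStag2. Its log2 fold change was 2.61 ± 0.29 (edgeR adjusted p = 2.25e-06), and the siGLO libraries, at 18.3, 20.6 and 17.4, overlapped those of siStag2. Snai2, Ephb1 and Dcc were named as members of other lists, without that limit on level. Snai2, which encodes a repressor active in the change from epithelial to mesenchymal cells, had 64.8, 54.9 and 60.8 against 10.7, 8.03 and 12.3, which differed by 2.52 ± 0.38 on the log2 scale (edgeR adjusted p = 0.000158). Ephb1, an ephrin receptor of growing axons, was at 2.43 ± 0.42 (edgeR adjusted p = 0.000644), and the netrin receptor gene Dcc at 2.72 ± 0.61 (edgeR adjusted p = 0.00546), a call kept in 1 of 6 fits that left out a library.

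Genes of higher level were found among the increases too. Ctgf, which encodes a secreted matrix protein, had 3932, 3742 and 3182 normalized counts after siPds5b, 1946, 1963 and 1756 after siStag2, and 1761, 1809 and 1677 after siGLO. The siPds5b libraries stood apart, and the log2 fold change between the siRNAs was 0.94 ± 0.09 (edgeR adjusted p = 1.04e-06). Sepp1, the gene of selenoprotein P, had 1224, 1106 and 878.1 against 355.3, 417.3 and 463.9, which differed by 1.38 ± 0.15 on the log2 scale (edgeR adjusted p = 1.69e-06). Ano3, which encodes a membrane protein of the anoctamin family, had 127.0, 130.6 and 142.5 against 29.3, 37.8 and 41.9, which differed by 1.88 ± 0.19 on the log2 scale (edgeR adjusted p = 1.12e-06). At all 3 genes the siStag2 effect against siGLO was between 0.11 and 0.26 and did not pass the test.

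Some naive pluripotency genes, which hold mESCs in the state of the early epiblast, were lower after siPds5b than after siStag2. Of 15 members tested 3 were called lower and 0 higher, with a median log2 fold change of -0.40. The block gave 6 lower (3.03% over all genes) and 1 higher. Over all genes 1.92% were called lower in this comparison. Against siGLO 12 of 15 fell after siPds5b (3.59% over all genes), with a median of -1.10, and 10 fell after siStag2 (1.27% over all genes), with a median of -0.60. Summed over the list, the normalized counts were 21601 to 22904 after siPds5b, 25350 to 26794 after siStag2 and 40578 to 41989 after siGLO, 3 ranges that do not overlap.

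Klf4, a transcription factor used in reprogramming (chromosome 4), had 572.7, 657.2 and 616.9 normalized counts after siPds5b, 1228, 1099 and 1167 after siStag2, and 1707, 1626 and 1622 after siGLO. The 3 conditions formed 3 separate steps, and the log2 fold change between the siRNAs was -0.92 ± 0.08 (edgeR adjusted p = 1.3e-07). Esrrb, a nuclear receptor of the naive network, had 2245, 2104 and 2282, then 3488, 3578 and 3776, then 6206, 5881 and 5824. It showed the same 3 steps, at -0.71 ± 0.08 (edgeR adjusted p = 2.34e-06). Nr5a2, another nuclear receptor that acts upstream of Pou5f1, had 225.5, 266.4 and 290.0 against 475.3, 396.7 and 400.6, with siGLO at 602.3, 542.5 and 655.4. Its log2 fold change was -0.71 ± 0.11 (edgeR adjusted p = 0.000175). Prdm14, which keeps DNA methylation low in this state, was at -0.77 and did not pass the test (edgeR adjusted p = 0.0123), while the block called it (edgeR adjusted p = 0.00486).

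Sox2, a core pluripotency factor, had 5006, 4355 and 4601 normalized counts after siPds5b and 6954, 6682 and 6551 after siStag2, with siGLO at 8656, 7375 and 7400. The groups did not overlap, and the log2 fold change was -0.53 ± 0.07 (edgeR adjusted p = 3.96e-05). L1td1, an RNA-binding protein of pluripotent cells, was at -0.49 ± 0.11 (edgeR adjusted p = 0.00526), called in 2 of 6 fits that left out a library. These were the 2 of 12 general pluripotency genes called (1.92% lower over all genes), and the median of that list was -0.01. The block gave 2 higher (2.92% over all genes) and 2 lower (3.03%). Dppa2 was at 0.58 (edgeR adjusted p = 0.0727), and the block called it (edgeR adjusted p = 0.00144). Dppa5a was at 0.45 (edgeR adjusted p = 0.0113), and the block called it too (edgeR adjusted p = 0.00761). Pou5f1 had 19426, 17768 and 17832 against 15901, 18162 and 17368, groups that overlap, at 0.10 ± 0.08 (edgeR adjusted p = 0.516). Nanog, with 2602, 3594 and 3515 against 3859, 4084 and 4647, was at -0.38 ± 0.13 (edgeR adjusted p = 0.0713), and the block called it (edgeR adjusted p = 0.00218).

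Genes of the Hedgehog pathway were among the largest decreases. Hedgehog ligands bind Patched receptors, which frees Smoothened to activate the Gli transcription factors. The list of 17 genes was written after 2 Gli genes had been seen among the changes, so its count is not independent evidence. Of 16 members tested 4 were called lower after siPds5b (1.92% over all genes) and 0 higher (2.04% over all genes), with a median of -0.15. Gli1 (chromosome 10), a target and effector of the pathway, had 82.6, 65.3 and 105.6 normalized counts after siPds5b, 283.0, 249.9 and 316.8 after siStag2, and 299.6, 397.5 and 366.3 after siGLO. The siPds5b libraries lay below all others, and the log2 fold change was -1.74 ± 0.17 (edgeR adjusted p = 7.49e-07). Gli2 (chromosome 1) had 232.6, 261.2 and 274.1 against 855.0, 564.1 and 677.5, at -1.45 ± 0.15 (edgeR adjusted p = 1.14e-06).

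The receptor genes had smaller differences. Smo, the receptor that Patched holds back, showed another order, since 1001, 1117 and 1147 after siPds5b overlapped siGLO at 1054, 1228 and 1246, while siStag2 stood above both at 1717, 1654 and 1498. Its log2 fold change was -0.58 ± 0.10 between the siRNAs (edgeR adjusted p = 0.000453) and 0.46 for siStag2 against siGLO (edgeR adjusted p = 0.00499). Ptch1 was at -0.38 (edgeR adjusted p = 0.0455), Gli3 at -0.20, and the inhibitor Sufu at -0.10, none of which passed. Hhip, which binds the ligands, had a log2 fold change against siGLO of -1.30 after siPds5b (edgeR adjusted p = 0.00634) and -1.28 after siStag2, which did not pass (edgeR adjusted p = 0.0157), with -0.02 between them.

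Several other large decreases held the same order, with siStag2 near siGLO and siPds5b below. Madcam1, an adhesion molecule of the gut endothelium, had 24.9, 9.33 and 11.96 normalized counts after siPds5b, 44.9, 59.6 and 59.3 after siStag2, and 47.7, 57.1 and 55.9 after siGLO. Its log2 fold change was -1.79 ± 0.33 (edgeR adjusted p = 0.00115), and 0.0118 was the adjusted p without siPds5b replicate 2. Epb4.9, which encodes the actin-bundling protein dematin, had 240.6, 381.5 and 346.8 against 721.3, 676.4 and 781.8, at -1.17 ± 0.16 (edgeR adjusted p = 0.000125). Rrm2, the small subunit of ribonucleotide reductase, had 3456, 3076 and 2877 against 5519, 4788 and 4800, with siGLO at 5266, 4665 and 5043. The siPds5b libraries were below all 6 others, at -0.68 ± 0.07 (edgeR adjusted p = 1.12e-06). Jph3, a junctophilin of neurons, was at -1.35 ± 0.23 (edgeR adjusted p = 0.000564).

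Fgf17, an FGF ligand, formed 3 steps like Klf4. It had 101.2, 127.5 and 123.6 normalized counts after siPds5b, 264.5, 296.9 and 254.5 after siStag2, and 412.4, 538.7 and 448.2 after siGLO. Its log2 fold change was -1.21 ± 0.15 (edgeR adjusted p = 1.01e-05), and it was the 1 member called of 24 FGF and ERK pathway genes (3.96% over all genes). Asns, the asparagine synthetase gene and a target of ATF4, was lower than siGLO after both siRNAs, by 0.78 after siPds5b and by 0.36 after siStag2 on the log2 scale, and differed between them by -0.42 ± 0.07 (edgeR adjusted p = 0.000626).

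At other genes called lower, siStag2 lay above siGLO. Nexn, which encodes the actin-binding protein nexilin, had 281.1, 251.1 and 247.3 normalized counts after siStag2, 104.6, 166.5 and 161.9 after siGLO, and 87.0, 119.2 and 101.7 after siPds5b. The siStag2 libraries stood above all others, and the log2 fold change between the siRNAs was -1.34 ± 0.17 (edgeR adjusted p = 1.63e-05). Bcl11b, a zinc finger factor of T cells and neurons, had 98.6, 110.1 and 98.1 after siStag2 against 44.4, 36.3 and 45.9 after siPds5b, with siGLO at 56.9, 57.1 and 51.1, and was at -1.27 ± 0.22 (edgeR adjusted p = 0.000626). Against siGLO, Nexn passed the test after siStag2 (0.85; edgeR adjusted p = 0.00308) and Bcl11b did not (0.89; edgeR adjusted p = 0.0126). Bcl3, a coactivator of NF-kappaB and a LIF target, had 663.7, 629.4 and 694.9 after siStag2 against 293.9, 385.6 and 383.7 after siPds5b, at -0.91 ± 0.11 (edgeR adjusted p = 1.68e-05), with siStag2 above siGLO by 0.54.

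Esyt1, a tether between the endoplasmic reticulum and the cell membrane, was at -0.88 ± 0.09 (edgeR adjusted p = 1.69e-06), with 768.9, 780.5 and 781.4 normalized counts after siPds5b, 1540, 1453 and 1293 after siStag2 and 1274, 1279 and 1172 after siGLO. Ppp1r9a, an imprinted gene of a neuronal actin-binding protein, had 635.7, 567.0 and 611.0 after siPds5b and 1225, 815.1 and 819.6 after siStag2, at -0.66 ± 0.14 (edgeR adjusted p = 0.00366). It kept the call in 2 of 6 fits that left out a library. The embryonic myosin gene Myh3 was at -1.41 ± 0.30 (edgeR adjusted p = 0.00376; 2 of 6 fits).

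**Figure D4:**
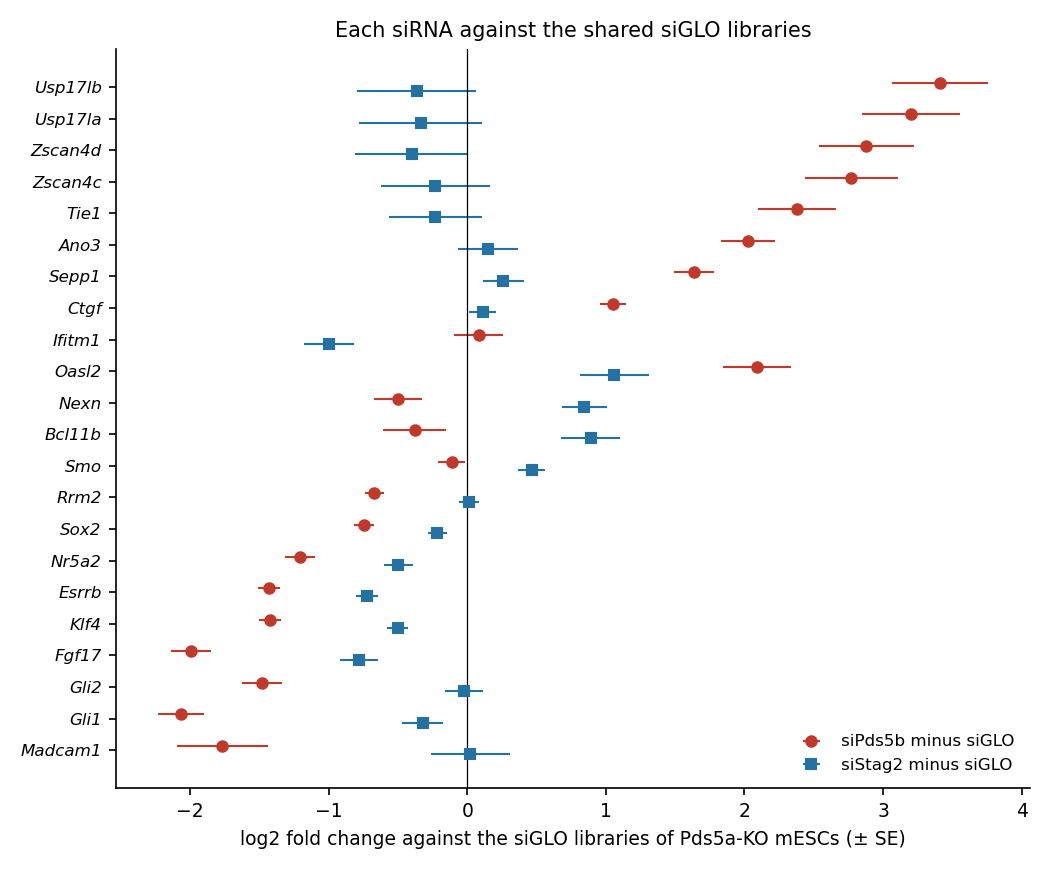
Log2 fold change of siPds5b (circles) and siStag2 (squares) against the shared siGLO libraries of Pds5a-KO mESCs for 22 genes, with SE as error bars. From Usp17lb, at 3.41 and -0.36, to Klf4, at -1.42 and -0.50, the panel shows genes where siStag2 lies near 0 and siPds5b does not, genes where both lie on one side of 0, and genes such as Nexn, at -0.50 and 0.85, on opposite sides.

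Interferon-stimulated genes, which answer to viral RNA and interferon, had 4 of 32 tested members called, against 3.96% over all genes. Of these 3 were higher and 1 lower, with a median of 0.43, and the block gave 8 higher (2.92% over all genes) and 1 lower. The groups did not overlap at 21 of the 32, against 26.6% over all genes. Summed over the list, the normalized counts were 26708 to 28410 after siPds5b, 19276 to 21608 after siStag2 and 22981 to 24577 after siGLO, without overlap. Against siGLO 8 were higher (4% over all genes) and 1 lower (3.59%) after siPds5b. After siStag2 0 were higher (0.969% over all genes) and 2 lower (1.27%). Oasl2, of the oligoadenylate synthetase family, had 893.2, 941.2 and 1010 normalized counts after siPds5b, 449.9, 501.0 and 444.5 after siStag2, and 221.4, 224.5 and 221.7 after siGLO, so that both siRNAs lay above siGLO. Its log2 fold change was 1.03 ± 0.23 (edgeR adjusted p = 0.00954), a call that was lost in each of the 6 fits that left out a library.

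Ifitm1, which encodes a membrane protein that blocks viral entry, showed another pattern, with 3773, 3716 and 3134 after siPds5b and 3603, 3462 and 2973 after siGLO, but 1296, 1989 and 1741 after siStag2. The log2 fold change was 1.08 ± 0.18 between the siRNAs (edgeR adjusted p = 0.00136), -0.999 for siStag2 against siGLO (edgeR adjusted p = 0.00381) and 0.08 for siPds5b. Ifi35 was at 0.96 ± 0.18 (edgeR adjusted p = 0.00122). Trim25, a ubiquitin ligase of the RNA-sensing pathway, had 1464, 1625 and 1943 after siPds5b and 2762, 2325 and 2516 after siStag2, at -0.60 ± 0.11 (edgeR adjusted p = 0.000873). Usp18, a brake on the interferon response, was at 2.30 and did not pass the test (edgeR adjusted p = 0.0179).

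Of 25 targets of p53, 3 were called higher after siPds5b (2.04% over all genes) and 0 lower, with a median of 0.17. The block gave 5 (2.92% over all genes). Pmaip1, which encodes the death-promoting protein NOXA, had 3851, 3803 and 3018 normalized counts after siPds5b and 2141, 2120 and 2034 after siStag2, at 0.76 ± 0.10 (edgeR adjusted p = 2.71e-05). Trp53inp1 was at 0.56 ± 0.09 (edgeR adjusted p = 0.000462), and the cyclin G gene Ccng1 at 0.42 ± 0.08 (edgeR adjusted p = 0.00166). Cdkn1a, the classical target, was at 0.48 and did not pass (edgeR adjusted p = 0.314). The Trp53 transcript was at -0.05.

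Genes of the cell cycle differed little as groups. Over all genes 2.04% were called higher and 1.92% lower. Of 33 DNA replication genes 2 were called, both lower, Rrm2 and the clamp loader gene Rfc4 at -0.39 ± 0.09 (edgeR adjusted p = 0.00991), and the median was -0.01. Of 32 genes of mitosis and chromosome segregation 2 were called lower, Ccnb2 at -0.31 and Plk1 at -0.25, and the median was 0.02. Among 27 cyclins, CDK inhibitors and Myc genes, Ccnd2 was at 1.05 ± 0.21 (edgeR adjusted p = 0.0048), with 609.1, 617.8 and 684.7 normalized counts after siPds5b and 308.4, 293.5 and 320.9 after siStag2. The CDK inhibitor gene Cdkn1c was at 0.70 and Rbl1, of the retinoblastoma family, at -0.35. All of these but Rrm2 lay near the threshold, and Ccnd2, Cdkn1c, Rbl1 and Plk1 lost the call in each of the 6 fits that left out a library. Skp2, which was not on these lists and marks CDK inhibitors for breakdown, had 1177, 1004 and 998.7 against 1634, 1629 and 1509, at -0.58 ± 0.08 (edgeR adjusted p = 4.31e-05).

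The Hox genes, which are silent or barely active in mESCs and set position along the body axis, were at low levels. The 22 tested of 39 had log2 fold changes from 0.04 to 2.41 with a median of 0.98, and 3 were called higher (2.04% over all genes). Against siGLO 7 were called higher after siPds5b (4% over all genes; median 1.14) and 0 after siStag2 (0.969% over all genes; median 0.22). Summed over the list, the normalized counts were 697.9 to 1007 after siPds5b, 415.0 to 459.9 after siStag2 and 335.2 to 383.6 after siGLO, without overlap. The filter on low counts keeps a gene that is high enough in 1 condition. Some Hox genes may thus have been kept through their siPds5b libraries alone, which would raise the median. The size of that effect was not tested. Hoxd13 had 164.3, 164.8 and 123.6 against 43.9, 52.7 and 36.8, at 1.76 ± 0.28 (edgeR adjusted p = 0.00022). Hoxc13 at 1.198 and Hoxb1 at 2.17 kept the call in 1 of 6 fits each.

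Among genes that read or write chromatin, Bmi1, a subunit of Polycomb repressive complex PRC1, had 444.8, 435.4 and 401.7 normalized counts after siPds5b and 214.7, 232.7 and 224.8 after siStag2, at 0.93 ± 0.13 (edgeR adjusted p = 4.28e-05). Pcgf2, a paralogue in the same complex, was at -0.42 ± 0.09 (edgeR adjusted p = 0.00251; 3 of 6 fits), and no other of 31 Polycomb genes was called (3.96% over all genes). Trim28, the corepressor of zinc finger proteins that silence repeats, had 21077, 20168 and 19276 against 28851, 25260 and 24042, at -0.37 ± 0.09 (edgeR adjusted p = 0.00877), and lost the call in each of the 6 fits. The 27 replication-dependent histone genes, most of whose messages lack a poly-A tail, were listed as a check of poly-A selection. Their median log2 fold change was -0.68, and their summed normalized counts overlapped, at 936.9 to 1048 after siPds5b, 695.9 to 1226 after siStag2 and 780.0 to 1147 after siGLO. Hist1h2bc was the 1 called (3.96% over all genes), at 1.10 ± 0.16 (edgeR adjusted p = 0.000125). The part of RNA selection in other results was not tested.

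Members of other lists were called too. Over all genes 3.96% were called, 2.04% higher and 1.92% lower. Dll1, a Notch ligand, had 370.2, 311.0 and 373.8 normalized counts after siPds5b and 138.6, 184.6 and 229.9 after siStag2, at 0.93 ± 0.18 (edgeR adjusted p = 0.00137), the 1 of 14 Notch pathway genes called. Phlda2, an imprinted gene that limits growth of the placenta, had 1218, 1455 and 1325 against 2408, 2414 and 2172, at -0.81 ± 0.12 (edgeR adjusted p = 0.000125), and of 41 imprinted genes 1 was called higher and 2 lower. Acss2, which makes acetyl-CoA from acetate, was at 0.67 ± 0.13 (edgeR adjusted p = 0.00144), the 1 of 34 sterol and fatty acid genes called. Pim1, a kinase induced by LIF and STAT3, was at 0.41 ± 0.08 (edgeR adjusted p = 0.00305; 3 of 6 fits), and of 15 LIF and STAT3 genes 1 was called higher and 2 lower. Eif2c2, the gene of the Argonaute protein AGO2 that carries out siRNA cleavage, had 1933, 1899 and 2278 after siPds5b and 3972, 2789 and 2827 after siStag2, at -0.65 ± 0.15 (edgeR adjusted p = 0.00888), and kept the call in 1 of 6 fits. Brdt was the 1 of 29 germline cohesin and meiosis genes called, at 0.88 ± 0.21 (edgeR adjusted p = 0.00888), and lost it in each fit.

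Few markers of differentiated cells were called, and over all genes the share called was 3.96%. The neural factor Pax6, with 91.5, 76.7 and 42.9 normalized counts after siPds5b and 119.1, 145.6 and 135.9 after siStag2, was at -0.92 ± 0.28 (edgeR adjusted p = 0.0383), and the filament gene Nes was at -0.75 ± 0.19 (edgeR adjusted p = 0.0208), which the block called (edgeR adjusted p = 1.18e-05). Msi1, an RNA-binding protein of neural progenitors, was the 1 of 19 neuroectoderm genes called, with 204.2, 245.7 and 281.1 against 489.0, 420.8 and 493.6, at -0.94 ± 0.14 (edgeR adjusted p = 0.000173). The list as a whole had a median of 0.18, with 11 of 19 above 0, and Neurog2, a proneural factor of very low level, was at 1.94 and narrowly missed the threshold (edgeR adjusted p = 0.01), while the block called it (edgeR adjusted p = 0.00926). The endoderm factors Gata6 and Sox17 were at 0.63 ± 0.48 (edgeR adjusted p = 0.473) and 0.92 ± 0.55 (edgeR adjusted p = 0.33). Of 21 primitive endoderm genes 0 were called, and of 17 trophoblast genes Phlda2 alone.

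Of the 41 lists 14 had no member called. Among them were the 10 regulators of cohesin, such as the loader, the releaser, the acetyltransferases and CTCF, whose log2 fold changes lay between -0.24 and 0.25 with a median of 0.01. The 73 cytosolic ribosomal protein genes (median -0.01), the 73 genes of oxidative phosphorylation (median 0.04) and the 32 Mediator genes (median 0.04) had none either, at an adjusted p under 0.01 by edgeR. Over all lists 1018 different genes were tested and 64 called, 42 higher and 22 lower, against 3.96% called over all genes. The 42 higher genes include 20 of the 2-cell-like list and the siRNA target Stag2, and the 22 lower ones include the target Pds5b. The block called 106, against 5.95% over all genes.

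**Figure D5:**
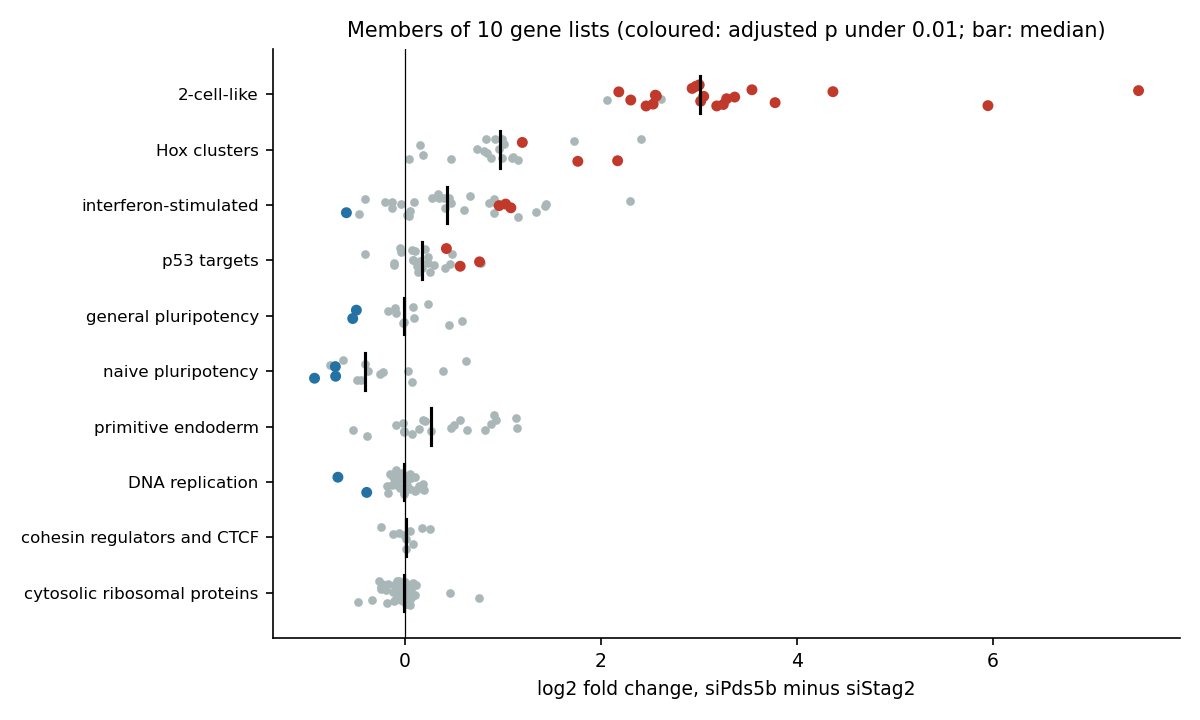
Log2 fold change of siPds5b minus siStag2 for each tested member of 10 gene lists, with called members in colour and the list median as a bar. The 2-cell-like members all lie above 2, the Hox members spread from 0.04 to 2.41, the naive pluripotency median is at -0.40, and the ribosomal and cohesin regulator lists centre on 0.

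With PDS5A present, the same siRNA gave few calls. In WT mESCs 1 gene of 14963 (0.00668%) was called, Pds5b itself, at -1.52 (edgeR adjusted p = 4.93e-08). By an interaction test in the same model the siPds5b effect differed between Pds5a-KO and WT mESCs at 222 genes (1.48%), more positive in Pds5a-KO mESCs at 88 (0.588%) and more negative at 134 (0.896%). Of the 593 genes that differed between the siRNAs in Pds5a-KO mESCs, 64 (10.8%) had an unadjusted p under 0.05 in the WT comparison, against 4.22% of all genes, and 59 of these 64 had the sign of siPds5b minus siStag2. Both tests share the spread estimated from all 21 libraries. With fits that share no library, an alternative chosen after seeing the data, 405 genes were called in the Pds5a-KO libraries and 384 of them could be tested in the WT libraries. Of these 42 (10.9%) had an unadjusted p under 0.05 in WT, against 5.6% of all genes there, and 40 had the same sign. Pds5b itself is among the genes counted. Among genes picked after their values were seen, Ufc1, the conjugating enzyme of the UFM1 modifier, had a log2 fold change against siGLO of -0.52 in WT and -0.47 in Pds5a-KO mESCs, with 0.10 for siStag2. Skp2 was at -0.46 and -0.74. Neither was called in WT. Cnga3, a channel gene of cone cells, was at 0.75 in WT and 0.60 in Pds5a-KO mESCs after siPds5b and at -0.78 after siStag2. Of the 2-cell-like genes, Zscan4d was at 0.15 and Usp17lb at 0.28 in WT, and neither passed the test.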

How the data were processed

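RNA-seq libraries of v6.5 mESCs were read as deposited. The authors enriched poly-A RNA, aligned reads to mm10 with STAR and deposited raw counts of reads for 23412 gene symbols per library; the counting tool, annotation and use of strand are not given in the sources used here, so reads of a gene and an overlapping antisense gene cannot be told apart. Groups came from the labels. The study calls the 3 libraries of a condition biological replicates of 1 clone. The labels do not say that they came from separate cultures, so p-values measure the spread between these libraries, which may be technical.

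The gene lists and members were chosen with earlier results of these data known. Genes were filtered with edgeR 4.0.16 (R 4.3.3) over 7 conditions, which left 14963, scaled by TMM and fitted in 1 robust quasi-likelihood model of all 21 libraries with 14 residual degrees of freedom and no covariate. Each contrast's p came from edgeR's quasi-likelihood F test, adjusted over all genes by Benjamini-Hochberg and called under 0.01. Normalized counts are scaled to 19816922 effective counts. Standard errors are the log2 fold change divided by the square root of F. Named genes were the siRNA targets and the study's markers, the 10 largest changes in each direction among called genes whose average was 1 or more on the log2 CPM scale and whose groups did not overlap, the 5 smallest adjusted p in each direction (targets and unnamed models left out of both), and up to 4 members per list.

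Total counts over the 21 libraries were 17311090 to 23989198; intervals and the floor of 3 counts cover counting error only. The main model has no term for the replicate number, and the replicate block takes same-numbered libraries as pairs. Deviations of same-numbered siPds5b and siStag2 libraries from their group means correlated at 0.11, 0.19 and 0.33 over 12176 genes. Those of unlike numbers correlated at -0.25 to 0.09. Neither the labels nor the paper state a pairing. The fit was tested on simulated data. Alternatives were DESeq2 1.42.0, RLE or library size scaling, other filters and thresholds, smaller sets of libraries, the replicate block and leaving out each library. Positions and gene lengths are from RefSeq annotation of mm10, which held 99.3% of symbols. The 150-base windows were taken from GENCODE transcripts. Figures were drawn with matplotlib 3.10.9 in Python 3.11.15. Results of 2 genes are not reported here.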

Additional observations from a re-analysis of the deposited data

Results flagged for a closer look

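The effect of siPds5b against siGLO differed between Pds5a-KO and WT mESCs at 18 of the 26 named genes with the largest or most significant differences, by an interaction test in the same edgeR model (adjusted p under 0.01), and at 1.48% of all genes. The named genes were chosen by their values in the same siPds5b libraries, so the count of 18 and its signs are a description and not independent evidence. At 12 of them the effect was more positive in Pds5a-KO mESCs. The difference of the log2 effects, Pds5a-KO minus WT, was 3.78 for Usp17le, 3.66 for Usp17lc, 3.14 for Usp17lb and 2.86 for Usp17la. It was 2.73 for Zscan4d, 2.72 for Zscan4e, 2.69 for Zscan4f and 2.67 for Zscan4c. Outside these families of copies it was 2.46 for Tie1, 1.65 for Ano3, 1.64 for Sepp1 and 1.04 for Ctgf. At 6 genes the effect was more negative in Pds5a-KO mESCs, with -1.89 for Gli1, -1.70 for Fgf17, -1.42 for Gli2, -1.21 for Klf4, -1.16 for Epb4.9 and -0.46 for Rrm2. The siGLO levels of both genotypes enter this difference, and the Zscan4 and Usp17l genes started from a lower level in Pds5a-KO than in WT mESCs.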

How the results depend on the processing

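The log2 fold changes of Pds5b (-1.72 to -1.44) and Stag2 (2.18 to 2.31) kept their direction and call in every fit that left out a library, and under all other alternatives run. The count of 593 became 264 when the fit held the 6 libraries alone, 891 with the replicate block, 1365 at an adjusted p under 0.05 and 166 when a change of 1 or more on the log2 scale was also required, and was 272 to 474 when single libraries were left out. DESeq2 called 871, of which 589 were among the 593. For siPds5b against siGLO (1136) the counts were 524, 2353 and 377 for the same fit of fewer libraries, the looser p and the fold limit, and 689 to 946 with single libraries left out. For siStag2 against siGLO (335) they were 99, 1196 and 47, and 775 with DESeq2, 165 with the 12 Pds5a-KO libraries, 677 with the replicate block and 68 to 375 with single libraries left out. Of the listed genes 64 were called, 42 with at least 10 counts in every library, 106 with the replicate block, 125 at the looser p and 34 with the fold limit. The 1 call in WT mESCs became 3 with DESeq2 or the block, 2 without a filter and 4 at the looser p. The cause of these changes was not tested, apart from those that follow from fewer libraries or another limit.

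Of the 82 named genes called, 53 kept the call in all 6 fits that left out a library, 21 in some and 8 in none, and none of these 82 changed direction under any alternative run. Hhip, which was not called, went from -0.02 to values between -0.35 and 0.17 when libraries were left out, reversing to 0.17, 0.07, 0.10 and 0.02. The block removed no call of a named gene. Depth limits genes near the filter most: the floor of 3 counts leaves no fold for genes at or under it in both groups.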

Other observations

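Some genes that differed between the siRNAs were called for siStag2 against siGLO, and the names given here were picked after their values were seen. Of the 305 genes higher after siPds5b, 18 were called lower after siStag2 than with siGLO. Lgals9, the gene of a sugar-binding lectin, was at -1.48 for siStag2 against siGLO (edgeR adjusted p = 6.23e-05) and at -0.53 for siPds5b, which did not pass (edgeR adjusted p = 0.0451). Khdc3, an RNA-binding protein of oocytes and early embryos, was at -1.24 for siStag2 and -0.70 for siPds5b, both called. Pknox2, a homeobox gene, was at -1.05 for siStag2 and -0.08 for siPds5b, and Mex3b, which encodes an RNA-binding protein, at -0.86 and -0.21. Pecam1, an adhesion molecule also found on mESCs, was at -0.50 and -0.04. Pdlim3, a protein of actin filaments, was called higher after both, at 1.04 for siStag2 and 1.85 for siPds5b.

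Of the 288 genes lower after siPds5b, 22 were called higher after siStag2 than with siGLO. Phf2, a demethylase of histones, was at 0.60 for siStag2 and -0.22 for siPds5b, and Taok3, a kinase, at 0.62 and -0.08. Homer2, a scaffold protein of synapses, was at 0.59 and 0.13, and Lrp8, a receptor for reelin, at 0.56 and 0.05. Lpgat1, an enzyme of phospholipid synthesis, was at 0.53 and -0.11. The siGLO libraries are shared by both comparisons, and the genes were picked from the same siPds5b and siStag2 libraries.

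Among the 40 largest increases after siPds5b, 10 were neither list members nor unnamed models. All were of low level, below 1 on the log2 CPM scale. Pramef6 was at 5.04 (edgeR adjusted p = 0.000828), Naalad2 at 4.30, Spesp1, named for its place in the sperm head, at 3.06 and Foxd1, a forkhead transcription factor, at 2.79.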
